A study of Caenorhabditis elegans with 2 samples.

Results

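The genes rpr-1 and mrpr-1 of the nematode Caenorhabditis elegans encode the RNA subunits of RNase P and RNase MRP. In every list examined both genes had a TRA-4 peak with its summit inside the gene, in a region that reached beyond the gene. They are 2 of the 46890 genes annotated on the nuclear chromosomes, taken by name, and they were chosen by their peaks in these data. Their ranks, signal values and summit positions are therefore given as a description, with no test. The data come from ChIP-seq, in which chromatin bound to a protein is precipitated and its DNA sequenced, and the protein was TRA-4, a zinc finger factor of sex determination. The worms were of strain OP640, genotype unc-119(tm4063) III; wgIs640, a transgenic line in which TRA-4 carries GFP and FLAG at its C-terminal end, and the precipitating antibody recognises GFP. Early embryos, males and females pooled, were obtained by bleaching and used whole, and the chromatin was broken by sonication. The 2 biological replicates form a single group that carries both the transgene and the unc-119 mutation. No untagged strain and no other condition is analysed here. The deposited data are lists of regions, with no read counts among the values used, and so the sequencing depth is unknown. Whole embryos mix cell types, and a peak shared by all cells cannot be told apart from a strong peak in a few.

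RNase P is the endonuclease that removes the 5′ leader from precursors of transfer RNA. RNase MRP is a related ribonucleoprotein, known mainly for cleaving the precursor of ribosomal RNA, and in yeast and human it shares most of its protein subunits with RNase P. In human both RNAs are made by RNA polymerase III from promoters that lie upstream of the gene. Those promoters have a proximal sequence element bound by the SNAP complex (SNAPc) and a TATA box. Genes for tRNA are also transcribed by RNA polymerase III, but their promoter elements, the A box and the B box, lie inside the transcribed region.

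The upstream sequence of mrpr-1 and the gene itself are shown because the peak lay at the start of the gene. The upstream sequences of 5 other small RNA genes are shown to compare their promoter elements. All are from the RefSeq genome of assembly WBcel235, which is ce11, and read 5′ to 3′ on the strand of the gene. The mrpr-1 sequences cover chrII:7200153-7200232 and chrII:7200233-7200418 on the plus strand. The others are the 80 bases before the start of yrn-1 (chrIV:7499428-7499507, plus strand), W05B2.8 (chrIII:10989599-10989678, plus strand), F54D8.7 (chrIII:5080899-5080978, minus strand), K09B11.11 (chrIV:13435887-13435966, minus strand) and K09B11.12 (chrIV:13439017-13439096, plus strand). In the upstream sequences capitals mark TGTCNGC, where N is any base, and TATA. In the mrpr-1 gene they mark the stretch from the summit in the pooled list to the summit in the replicates.
mrpr-1 upstream: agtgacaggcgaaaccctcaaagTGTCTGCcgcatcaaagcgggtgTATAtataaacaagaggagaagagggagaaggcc
mrpr-1 gene: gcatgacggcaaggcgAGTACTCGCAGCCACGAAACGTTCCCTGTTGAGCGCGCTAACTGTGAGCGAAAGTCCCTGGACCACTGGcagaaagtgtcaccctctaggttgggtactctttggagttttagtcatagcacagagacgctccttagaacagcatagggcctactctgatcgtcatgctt
W05B2.8 upstream: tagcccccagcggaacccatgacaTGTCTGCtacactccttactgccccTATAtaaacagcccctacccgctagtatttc
F54D8.7 upstream: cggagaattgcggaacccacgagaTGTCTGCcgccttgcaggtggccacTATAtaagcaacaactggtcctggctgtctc
K09B11.11 upstream: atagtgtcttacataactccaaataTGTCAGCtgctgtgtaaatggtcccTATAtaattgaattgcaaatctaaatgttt
K09B11.12 upstream: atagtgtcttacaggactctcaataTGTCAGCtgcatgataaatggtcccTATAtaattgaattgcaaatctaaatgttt
yrn-1 upstream: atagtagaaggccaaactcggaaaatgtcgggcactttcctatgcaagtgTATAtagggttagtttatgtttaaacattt

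Both genes had TGTCNGC and TATA at nearly the same places before the start. Counted from the start, with -1 the base before it, TGTCNGC covered bases -55 to -49 at rpr-1 and -57 to -51 at mrpr-1. The repeat TATATA covered bases -30 to -25 at rpr-1, and overlapping matches ran from -34 to -27 at mrpr-1. The distance from the start of TGTCNGC to the start of the first TATA was 25 bases at rpr-1 and 23 at mrpr-1. Both genes have overlapping matches to TATA, so these distances depend on which match is taken. These letters were picked after the upstream sequences of both genes had been read, so their presence there is no finding. In windows of 250 bases before to 50 after the start, 7.74% of 46878 genes had TGTCNGC on either strand, and 12.3% had TATATA, which reads alike on both strands. Another run of letters, GNAACC, lay at bases -68 to -63 of rpr-1 and -70 to -65 of mrpr-1, and 27.3% of windows had it on either strand.

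Genes with the same pair of elements at like positions were few and differed in whether they had a peak. With TGTCNGC starting 80 to 40 bases before the start and TATA starting 40 to 20 bases before it, on the strand of the gene, 48 of the 46878 genes matched (0.102%). Of these, 5 had a summit of the final peak set within 500 bp of the start, which is 10.4%, against 1.27% of genes without the pair. Both rpr-1 and mrpr-1, from which the letters were read, are among the 5, and without them the count was 3 of 46 (6.52%). The 48 genes differ from the rest in type, and no test was made. The 3 others with a summit were W01D2.9, annotated as a noncoding RNA (ncRNA), and the small nuclear RNA (snRNA) genes W05B2.8 and F54D8.7. Among snRNA genes 10 of 129 matched, all with the spacing of 25 bases, and 2 of the 10 had such a summit, where 10.9% of all snRNA genes did. The pair also stood at genes with no peak. K09B11.11 and K09B11.12 have both elements and no region of any list within 500 bp of the start, as do K09B11.13, K09B11.14 and K09B11.16. These K09B11 genes lie close together on chromosome IV, each is 102 bp long, and the 2 upstream sequences shown are much alike. How the authors treated reads that match several genes is not stated in the sources used. The ncRNA genes CD4.17, CD4.18, F35E12.13 and M163.12 also have the pair and no such region. The Y RNA gene yrn-1, whose RNA is bound by the Ro protein, has the TATA of the pair without an exact TGTCNGC. At the place where rpr-1 has TGTCNGC, yrn-1 reads TGTCGGG, which differs from it in the last base alone. Its only nearby region ranked 6088 in replicate 1, at +472 bp.

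At rpr-1 the strongest region of each list covered the start of the gene (WBGene00045238, ce11 chromosome I, 13463955 to 13464207, plus strand, 253 bp). The same region stands in the pooled list, a relaxed list with weak regions kept that the authors called on both replicates together, and in their final peak set. That set, called the IDR set here, was taken by irreproducible discovery rate, which scores how alike regions rank in replicates. The region ran from 13463787 to 13464266. Its summit at 13464027 lay 72 bp downstream of the start, inside the gene. Its signal value of 211.9 ranked 64 of 394 in the IDR set and 64 of 9660 in the pooled list, so 0.663% of pooled regions ranked at or above it. In replicate 1 the region ran from 13463721 to 13464220, with its summit at 13463971 (+16 bp) and a signal of 92.82, rank 50 of 19062 (0.262%). In replicate 2 it ran from 13463792 to 13464261, with its summit at 13464027 (+72 bp) and a signal of 127.6, rank 63 of 13957 (0.451%). These signals were 4.0, 4.64 and 4.01 times the median of the pooled list, of replicate 1 and of replicate 2. The scale of the signal differs between lists, so only ranks and multiples of a list's own median are set side by side.

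The peak at rpr-1 stood inside a protein-coding gene on the other strand. The gene lies in an intron of ints-8 (13455356 to 13470371, minus strand), which encodes subunit 8 of Integrator, a complex that processes the 3′ ends of small nuclear RNAs. That intron runs from 13462739 to 13464761 (2023 bp), and rpr-1 is 1216 bp from the exon on its left and 554 bp from the exon on its right. The IDR summit was 6344 bp from the start of ints-8. At the ints-8 start itself each relaxed list held a weak region, at rank 4643 of the pooled list (-14 bp), 4944 of replicate 1 (+115 bp) and 5943 of replicate 2 (-2 bp). The strong region was thus at the RNA gene and not at the start of its host.

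At mrpr-1 (WBGene00045095, ce11 chromosome II, 7200233 to 7200418, plus strand, 186 bp) the strongest region again covered the start. In the IDR set and the pooled list it ran from 7200009 to 7200488, with its summit at 7200249, 16 bp downstream of the start. Its signal of 209.6 ranked 66 in both lists (0.683% of the pooled list at or above it). In replicate 1 the region ran from 7200067 to 7200566, with a signal of 62.66 and rank 142 (0.745%). In replicate 2 it ran from 7200082 to 7200551, with a signal of 150.3 and rank 39 (0.279%). Both replicates put the summit at 7200317, 84 bp downstream of the start. The multiples of the list's median were 3.96 in the pooled list, 3.13 in replicate 1 and 4.72 in replicate 2, so mrpr-1 stood higher in replicate 2.

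Unlike rpr-1, mrpr-1 lies between protein-coding genes. The gene pcrg-1, related to the human parkin co-regulated gene, starts at 7200549 on the same strand, 131 bp beyond the end of mrpr-1. The IDR summit was at -300 bp from the pcrg-1 start and the summit of both replicates at -232 bp, so a rule of 500 bp also assigns this peak to pcrg-1. On the other side the minus-strand gene E04F6.6 (7197391 to 7199565) starts 668 bp upstream of mrpr-1, and the IDR summit was at -684 bp from that start. Next on either side were srd-56, a gene of a chemoreceptor family, 1598 bp downstream, and maoc-1, 2738 bp upstream. Whether the peak belongs to mrpr-1 or to pcrg-1 cannot be read from position alone. In all 4 lists the summit lay within mrpr-1.

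Beyond these regions the 2 kb around each gene held few others, all weak. Around rpr-1 the IDR set held 1 region, the pooled list 2, replicate 1 held 1 and replicate 2 held 3. The second pooled region had its summit at -2186 bp and ranked 6998. Replicate 2 held a region overlapping the strong one, with its summit 279 bp downstream (rank 6100), and another with its summit at -2226 bp (rank 8807). The outer pair lay 1947 and 1992 bp from the gene, just inside the 2 kb limit, and the nearest region beyond it was 2247 bp away, at rank 12739 of replicate 1. Around mrpr-1 the counts were 1, 2, 3 and 1. Its second pooled region overlapped the strong one, with its summit at +217 bp, between mrpr-1 and pcrg-1, and ranked 2580. Replicate 1 held regions with summits at -1641 bp (rank 6132) and -1380 bp (rank 13602), inside E04F6.6. The authors' q-values of these weak regions were between 0.619 and 0.905, while those of the strong regions were 0.00246 in the pooled list, 0.00209 in replicate 1 and 0.00176 in replicate 2, each the lowest that list holds.

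**Figure D1:**
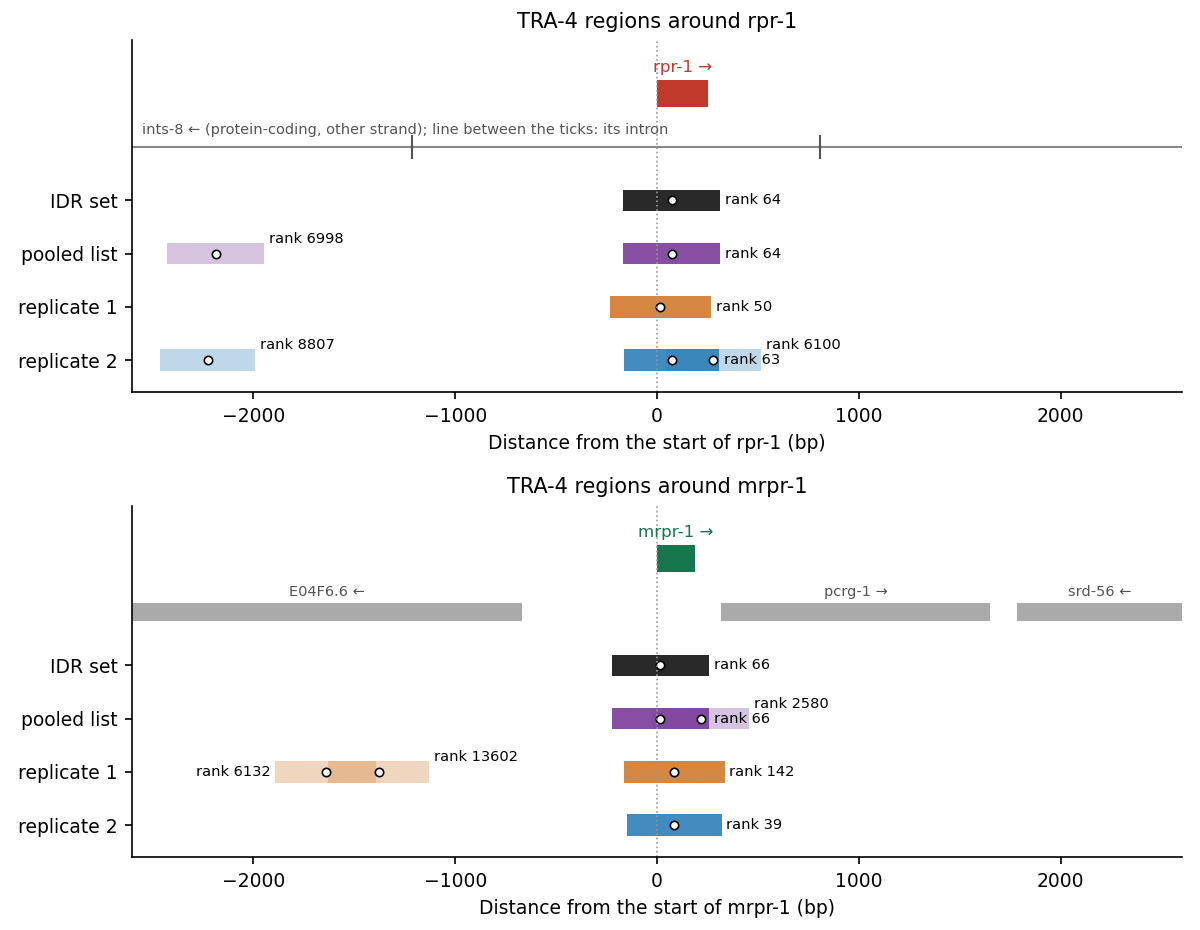
Regions of the 4 lists around rpr-1 and mrpr-1, drawn as bars against distance from the gene start in bp, with summits as white circles, q-values under 0.05 in full colour and others pale. The strong regions, at ranks 39 to 142 across lists, cover the start of each gene, and all other regions rank 2580 or lower.

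The replicates placed the peaks close together. At rpr-1 the summits of the 2 replicates were 56 bp apart and the regions overlapped by 429 bp. At mrpr-1 the summits were at the same base, 68 bp from the pooled summit, and the overlap was the whole 470 bp of the replicate 2 region. Over all 394 IDR peaks the median distance between replicate summits was 33.0 bp (quartiles 11.2 and 68.0). Ranks differed 1.26 times between replicates at rpr-1 and 3.64 times at mrpr-1, against a median of 1.79 times over the IDR peaks (quartiles 1.33 and 2.7). The rank of mrpr-1 thus varied more than that of most peaks, and the rank of rpr-1 less. In the pooled list the signals of both genes were 2.09 and 2.06 times that of the strongest region outside the IDR set. In 99.9% of pooled regions the summit is the midpoint of a region of set width, so a difference in summit between lists is a shift of the whole region.

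**Figure D2:**
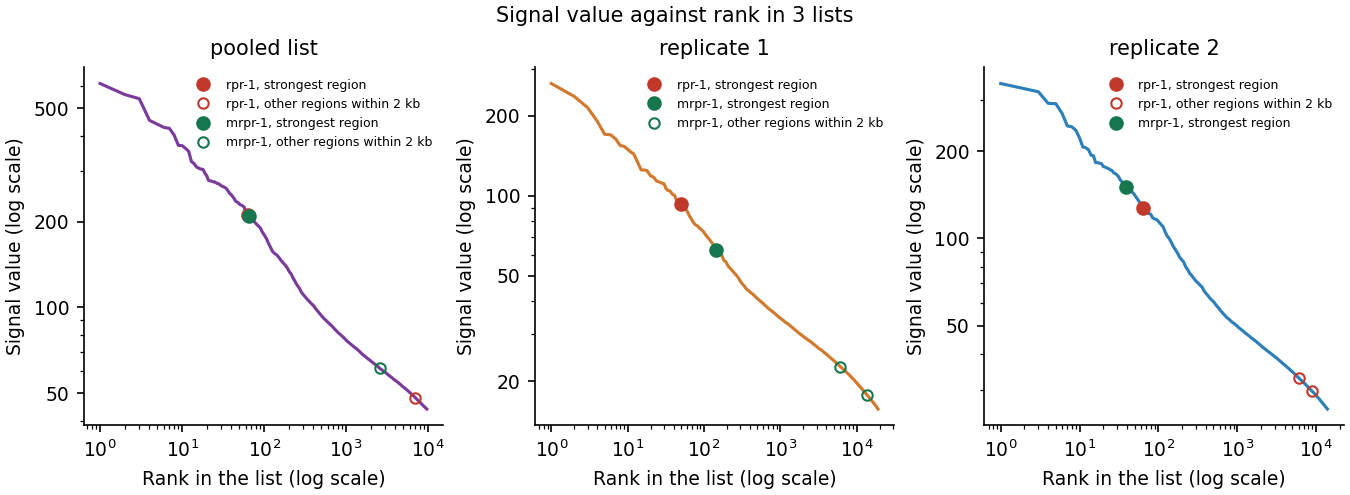
Signal value against rank, both on log scales, for all regions of the pooled list and of each replicate, with rpr-1 in red and mrpr-1 in green. The strongest region of each gene (filled) sits on the steep upper part of the curve, at ranks 64 and 66, 50 and 142, and 63 and 39, and the weak regions (open) sit near the lower end.

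Few other IDR peaks were near. The next one to rpr-1 was 42.8 kb away, at the protein-coding gene W05H12.1 (rank 319). The next one to mrpr-1 was 16.1 kb away, at the small nucleolar RNA (snoRNA) gene C27H5.9 (rank 59). The nearest tRNA gene was 132737 bp from rpr-1 and 196889 bp from mrpr-1. The nearest snoRNA genes, Y40B1A.6 and C27H5.10, were 93136 and 15741 bp away, and the nearest snRNA genes, sls-2.9 and C27H5.11, were 165970 and 28229 bp away. Neither peak can therefore be counted at a gene of those types by its position.

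Within 500 bp of the start, 601 of 46890 annotated genes (1.28%) had an IDR summit, and 182 of the 7764 genes of the annotated type ncRNA (2.34%), to which both RNA genes belong, had one. Nothing is read from the 2 of 2 here, since the peaks were the reason for the choice. In the order of signal the peaks next to both were, by nearest start, at other noncoding RNA genes. Such peaks are common, with 122 of the 394 IDR peaks near tRNA starts and 54 near snoRNA starts. The neighbours are therefore given as a description only. At rank 63, just above rpr-1, was srpr-2.2, a gene for the RNA of the signal recognition particle (signal 213.2, summit at +70 bp). Between rpr-1 and mrpr-1, at rank 65, was the ncRNA gene C30E1.9 (signal 209.9, summit at +73 bp), and at rank 67 was the tRNA gene Y65A5A.T1 (signal 209.6, summit at +1 bp). In each of these the summit was inside the gene.

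Summits at both RNA genes lay downstream of the start, at 16 to 84 bp over the pooled list and the replicates. At the 122 IDR peaks near tRNA starts the median was 18.5 bp (quartiles 6.25 and 45.75), 71.3% of summits were inside the gene, and 52 (42.6%) were between 16 and 84 bp. The +16 bp values were inside those quartiles, and the +72 bp values of rpr-1 and the +84 bp values of mrpr-1 were beyond the upper one. At the 54 peaks near snoRNA starts the median was -48.0 bp, 9.26% were inside the gene and 2 were in that range. At the 16 peaks near snRNA starts the median was 150.5 bp, 4 were inside the gene and 1 was in that range. Several of these peaks were named for sls- genes, which the annotation counts as snRNA. The peak named for sls-2.9 also lay near the start of the tRNA gene M01E5.T1, and that for smy-1 near the snoRNA gene smy-2. This median therefore describes positions near snRNA starts, and not peaks placed at snRNA genes alone. At the 165 peaks near protein-coding starts the median was -170.0 bp and 6 were in that range. With 2 genes no test of the difference was made. By rank, 17 of the tRNA peaks (13.9%), 23 of the snoRNA peaks (42.6%), 5 of the snRNA peaks (31.2%) and 18 of the protein-coding peaks (10.9%) stood above both genes. A peak near starts of different types counts in each.

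**Figure D3:**
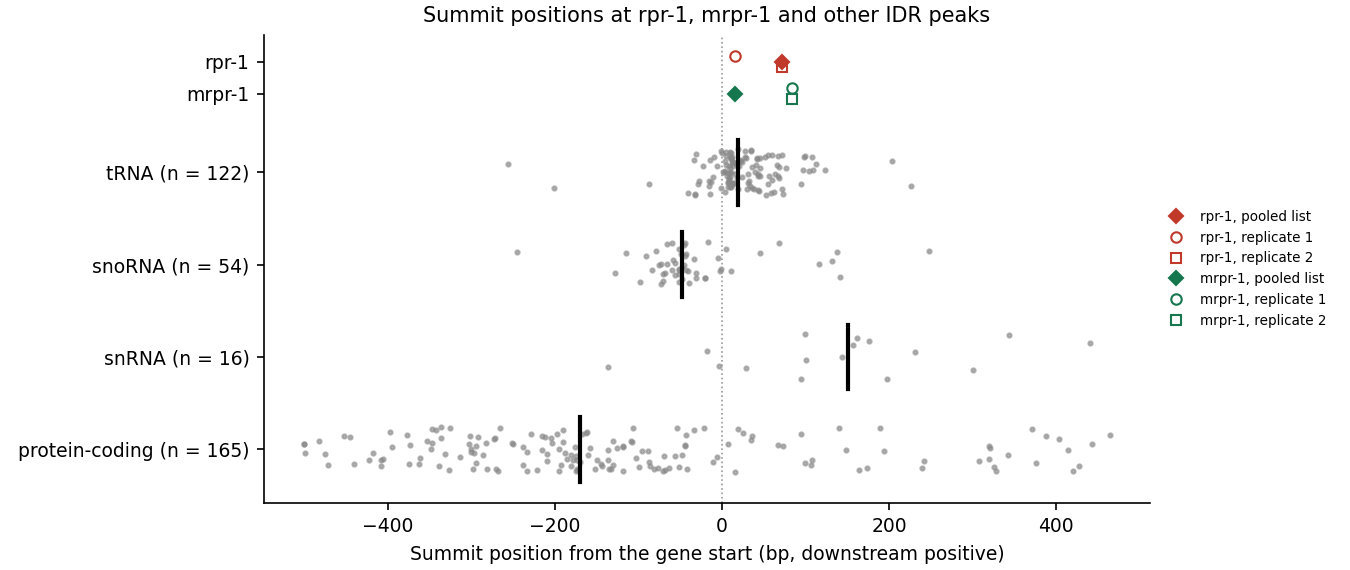
Summit position from the gene start in bp at rpr-1 and mrpr-1, in the pooled list and each replicate, above all IDR peaks near tRNA, snoRNA, snRNA and protein-coding starts (grey points, spread vertically at random, with the median as a bar). The summits of both genes lie from 16 to 84 bp, downstream of the tRNA median of 18.5 bp in all but the +16 bp values, and the snoRNA median is at -48.0 bp.

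Genes with ranks most like those of each gene were taken from 2594 pooled regions that lay near a start and overlapped a region in both replicates. Likeness was the distance in log10 rank over the pooled list and the 2 replicates. Nearest to rpr-1 were the snoRNA gene Y23H5B.10 (ranks 60, 57 and 70, distance 0.0782) and lem-2, which encodes a protein of the inner nuclear membrane (ranks 57, 45 and 56, distance 0.0851). The snoRNA genes ZK484.9 and ZK643.9 and the tRNA gene W03G11.T1 followed, at 0.138 to 0.148. Nearest to mrpr-1 was the tRNA gene T07H6.T2 (ranks 62, 145 and 44, distance 0.0597). The tRNA genes T21B4.T1 and F52H2.T2 and the ncRNA genes R01H5.2 and T23F1.8 followed, at 0.172 to 0.26. The peaks named for R01H5.2 and T23F1.8 also lay near tRNA starts, at +60 bp of R01H5.T1 and +60 bp of T23F1.T2. Between themselves rpr-1 and mrpr-1 were at a distance of 0.499, which put mrpr-1 at place 65 from rpr-1 and rpr-1 at place 51 from mrpr-1. Their near-equal pooled ranks went with opposite orders in the replicates, with rpr-1 ahead in replicate 1 (50 against 142) and mrpr-1 ahead in replicate 2 (39 against 63).

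Other noncoding RNA genes varied widely in rank. The 5 genes named srpr-, all for the RNA of the signal recognition particle, which targets secreted proteins to the endoplasmic reticulum, were added after srpr-2.2 was seen next to rpr-1. Of the 5, srpr-2.2 had an IDR summit (ranks 63, 52 and 96 in the pooled list, replicate 1 and replicate 2). The others had pooled regions at rank 397 for srpr-2.1, 475 for srpr-1.1, 817 for srpr-1.2 and 3583 for srpr-3. These genes form a family, and how the authors treated reads that match several of them is not stated in the files. By contrast rpr-1 and mrpr-1 each matched the genome only at their own place, with 0 other matches by BLAST at an E-value under 0.001. W01D2.9, the remaining ncRNA gene with both upstream elements and an IDR summit, stood at ranks 44, 58 and 40, and its summit lay upstream of the start, at -68 bp in the pooled list, -84 bp in replicate 1 and -81 bp in replicate 2. W05B2.8 stood at ranks 37, 36 and 21, with summits at +176, +2 and +206 bp, and F54D8.7 at ranks 180, 95 and 330, with summits at +29, +96 and +16 bp. At R07E5.16, an snRNA gene with both elements, the pooled rank was 421 and the replicate ranks were 3794 and 373. At lfor-2 and lfor-1, ncRNA genes with both elements, the pooled ranks were 2002 and 3121.

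None of the protein genes of the pathway that were found in the annotation had an IDR summit. They were 4 genes for RNase P and MRP proteins (popl-1, popl-4, popl-5 and popl-7, named after the yeast POP subunits), 6 of RNA polymerase III, 2 of TFIIIB, 3 of TFIIIC and 7 of SNAPc, the factors that start transcription by RNA polymerase III. Of the 22, 0 had an IDR summit within 500 bp, which allows a share of up to 15.4% (exact Clopper-Pearson 95% bound, counting error only), and 0.981% of 19973 protein-coding genes had one. This count therefore does not set the lists apart from other protein-coding genes. In the pooled list 3 of the 22 had a region, near the 12.3% of protein-coding genes that did.

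The regions at those protein genes were weak, and none of the genes had a region in both replicates. The gene popl-4 had a region at rank 8125 of the pooled list (-318 bp) and 4121 of replicate 2, with none in replicate 1. The gene popl-7 had a region in replicate 2 alone (rank 10125), and popl-1 and popl-5 had none in any list. Among RNA polymerase III genes, rpc-25 had ranks 2207 (pooled) and 982 (replicate 1), and rpac-19, whose product is shared with RNA polymerase I, had 3674 (pooled) and 4835 (replicate 2). The genes rpc-1 and rpc-2, for the 2 largest subunits, had regions in replicate 1 alone, at ranks 2714 and 3997, and rpc-11 had one in replicate 2 alone, at rank 13606. The TFIIIB gene brf-1 and the SNAPc gene snpc-1.1 had ranks 11150 in replicate 2 and 17931 in replicate 1. In all, 9 of the 22 had a region in at least 1 of the 3 relaxed lists, as did 5648 of the 19973 protein-coding genes (28.3%). The difference was not tested. Outside these lists, mafr-1, the homologue of the RNA polymerase III repressor Maf1, had a region in each, at rank 1118 of the pooled list (-143 bp), 6575 of replicate 1 (-144 bp) and 694 of replicate 2 (-124 bp). The gene hoe-1, for the RNase Z that cuts the 3′ end of tRNA precursors, had ranks 7546 (pooled, +500 bp) and 6986 (replicate 2).

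**Figure D4:**
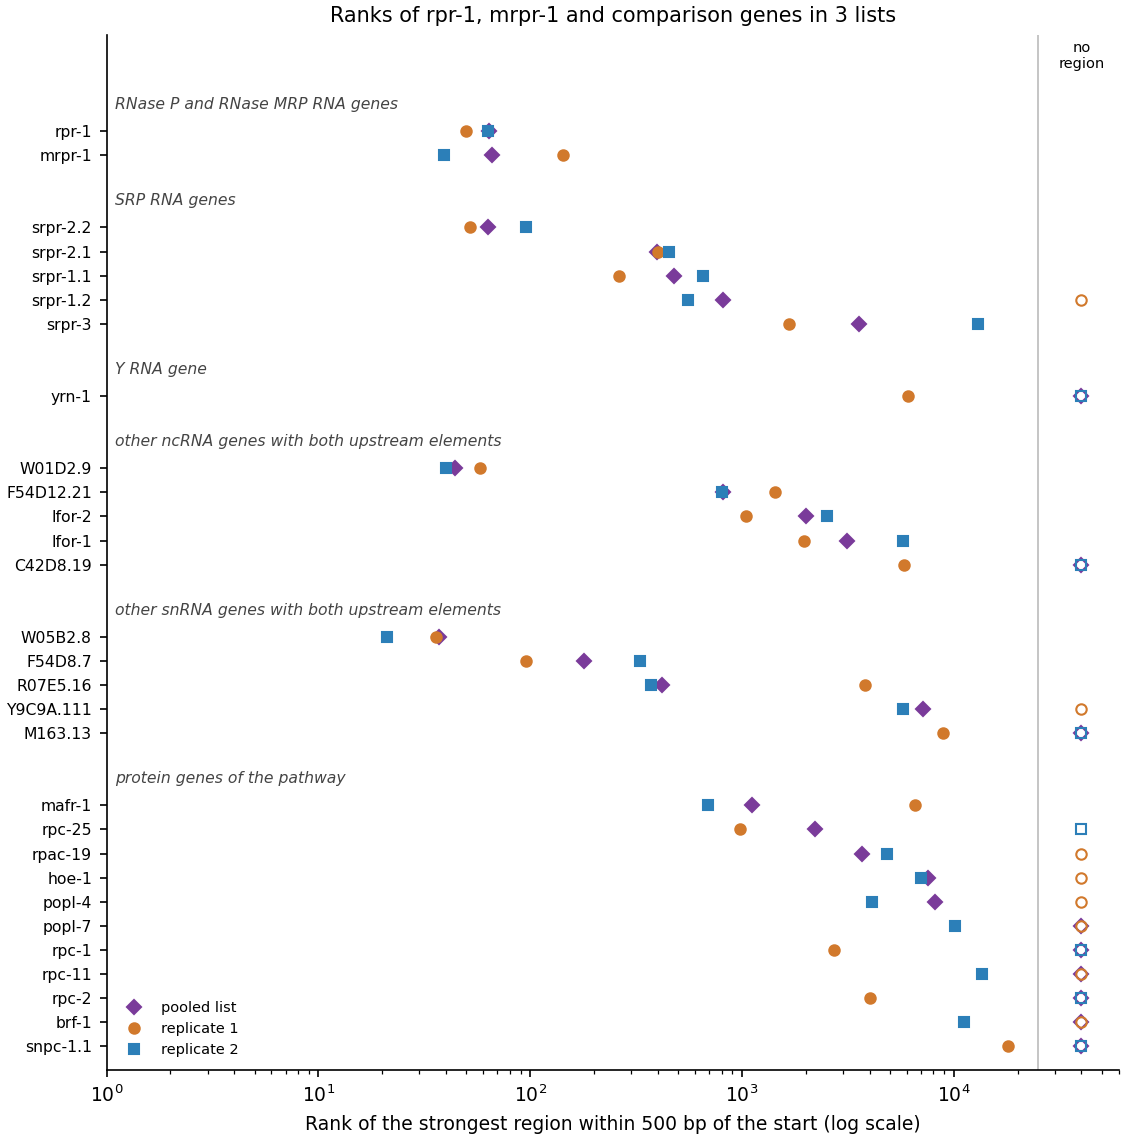
Rank of the strongest region within 500 bp of the start (log scale) in the pooled list and each replicate, for rpr-1, mrpr-1 and the comparison genes with a region in at least 1 list, with open symbols at the right for no region. Both RNA genes lie between ranks 39 and 142, with srpr-2.2, W01D2.9 and W05B2.8 at like ranks, and the protein genes lie between 694 and 17931.

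Of the other 6 motifs searched, GTGTCGG was in the window of rpr-1 alone, and the rest were in both windows or in neither. It was at bases -56 to -50, overlapping TGTCNGC, and 1.45% of all windows held it on either strand. TATAA was at bases -28 to -24 of rpr-1 and at -30 to -26 and -160 to -156 of mrpr-1 on the gene strand, and 58.6% of windows held it. The B box, GTTCGANNC, was in neither window (2.51% of all), and CTGTTTC was in neither (22.4%). The windows end 50 bases after the start, so a B box further inside a gene is not counted in either share. GAGAG (33.9%) and TTTTT (96.8%) were in both. Within 50 bp of the IDR summits, where 16.0% of all IDR peaks held the B box, neither gene did. In the same windows rpr-1 had 2 matches to GAGAG, which 29.7% of IDR peaks held, and mrpr-1 had 1 match to TATAA, which 13.7% held.

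Exact runs of bases shared by the 2 genes were short, and no expected length was worked out for them. The longest run of bases that both genes hold was 9, and in the 100 bases upstream it was 7. The genes were 51.0% (rpr-1) and 53.2% (mrpr-1) G or C. The 250 bases upstream were 49.2% and 40.4% G or C, against a median of 32.0% over 46878 genes (quartiles 28.0 and 36.8). Both were above the upper quartile, and base composition can affect the yield of sequencing. Its part in these signals was not tested.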

How the data were processed

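ChIP-seq of tagged TRA-4 in early embryos was analysed from the deposited ce11 peak lists of 2 samples, labelled as biological replicates of 1 group. Per the file descriptions, the authors called a relaxed list on each replicate and on both pooled, with a control alignment that is not analysed here, and selected the final set by IDR. The signal value and the −log10 q-value of each region are the authors', as deposited in narrowPeak format. For the aligner, the peak caller, the IDR cutoff and the depth, no value is given in the sources used here. How reads with several matches were treated, which bears on genes with close copies, is not given either. The ce10 lists were not used, since no coordinates were converted.

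The lists hold 394 (IDR), 9660 (pooled), 19062 (replicate 1) and 13957 (replicate 2) regions, and 394, 535, 520 and 541 of them have a q-value under 0.05. Rank 1 is the highest signal value in a list. Summits are the region start plus the deposited offset, written 1-based, and a summit within 500 bp of a start counts as near. Genes came from the Ensembl annotation of WBcel235, and locus names and sequence from RefSeq. Python 3.11.15, pandas 2.3.3, scipy 1.17.1 and BLAST+ 2.17.0 were used, and the functions were tested on simulated data. The genes, lists and rules were chosen with earlier results of these data known. Named genes are rpr-1, mrpr-1, their neighbours, list genes with a region, and the 5 genes nearest in log10 rank. Neighbouring ranks in the IDR set, the srpr- genes, the elements TGTCNGC and TATATA, the run written GNAACC and the genes with both elements were chosen after their values were seen. The symbols rpp-14, rpp-20, rpp-21, rpp-25, rpp-29, rpp-30, rpp-38, rpp-40, rpc-3 to rpc-10, bdp-1, snpc-3.3, snpc-3.5 and mrpp-3 did not match the annotation. The symbol maf-1 was listed in error and is not counted. Alternatives were each replicate alone, ranking by q-value, other distances and other list thresholds.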

Additional observations from a re-analysis of the deposited data

How the results depend on the processing

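Of 28 alternatives, 22 left the count as it was or moved the value by no more than 1 SD of the 2 replicate values (1 bp for the summit of mrpr-1, whose replicates share a base), 6 moved it further and 0 reversed it. Part of the 22 could not have moved, so the count is no measure of stability. The IDR set and the pooled list hold the same region at each gene, and nearly all summits are midpoints. A wider distance cannot lower a count, and a narrower one cannot raise a count of 0. A rank has no sign to reverse. Both genes had a summit near the start within 100, 200, 1000 and 2000 bp, in the stronger 197 of the IDR set, at a q-value under 0.05 and in each replicate. The 22 protein genes had 0 IDR summits within 200 and 1000 bp, and 0 among the strongest 394 regions of each replicate, the settings run for them. Over the whole lists, 4 of the 22 had a region within 500 bp in replicate 1 and 5 in replicate 2. Leaving out either replicate gave ranks from 50 to 63 for rpr-1 and summits from 16 to 72 bp. For mrpr-1 it gave ranks of 142 without replicate 2 and 39 without replicate 1, so each replicate decides its rank, and a summit at 84 bp either way, against 16 bp in the pooled list. Ranked by q-value, both genes shared rank 1 with all 204 regions at the lowest q-value of the pooled list, so that column does not order the strongest regions. For mrpr-1 that change stays under its wide SD of 72.8 ranks, and for rpr-1 it exceeds the SD of 9.19 ranks. No paired analysis was possible because the replicates form 1 group. With 2 replicates, no read counts and no control profile used here, the error of a signal value is unknown beyond the 2 values given. Regions of 470 to 500 bp limit how closely a summit can be placed.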
